A study of Mus musculus with 10 samples.

Results

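The 10 genes described here, Sftpd, Cldn8, Tnfrsf11b, Lrrc55, Gfra3, Matn2, Fmo1, Bcat1, Rerg and Tmem47, were chosen by their measured values: they had large rises over control islets in islets whose beta cells lack FIT2, with no overlap between the groups. They are 10 of 47340 genes in the deposited table, of which 13065 reached a mean of at least 1 FPKM (fragments scaled to transcript length and to mapped reads, a level per length) in at least 1 group and were tested. All 10 passed that filter, 6 of them through the KO group alone, with a mean under 1 FPKM in the controls. Because the difference between the groups selected them, it is described here and not tested.

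Pancreatic islets of 12-week-old male, chow-fed mice were compared between 2 groups of 5 libraries. KO islets came from mice with both Fitm2 alleles floxed and Cre recombinase under the rat insulin II promoter (beta-FIT2KO), and FL islets from floxed littermates without Cre, whose genotype GEO gives as wild type and whose title says Flox. Fitm2 encodes FIT2, an endoplasmic reticulum protein needed to form lipid droplets. Islets recovered overnight in culture before poly(A) RNA was sequenced, and the study describes the 5 replicates of each group as mice, although the labels name no animal for a library. The Cre line named in the methods is known to carry a human growth hormone minigene beside Cre. Islets with Cre and intact Fitm2 are not among the 10 libraries, so the transgene and the loss of Fitm2 cannot be told apart in any difference given here.

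Fitm2 itself was 16.9, 30.5, 16.5, 37.1 and 15.5 FPKM in the FL libraries and 4.56, 4.30, 7.75, 9.13 and 9.0 FPKM in the KO libraries. It was lower in all 5 KO libraries (log2 difference -1.58 ± 0.28 SE, limma with Benjamini-Hochberg adjustment, adjusted p = 0.00228, n = 5 and 5). Ins1, Ins2, Iapp and Gcg, the transcripts that define beta and alpha cells, were listed at 0 in all 10 libraries, which can be a failed estimate, so these markers could not be used to check the tissue. The other beta-cell markers were present, and 6 of 7 tested were lower in KO, with summed levels of 2270 to 2840 FPKM in FL and 1510 to 2120 FPKM in KO. Relative sequencing depth, read from the steps between low FPKM values, ranged from 1 to 2.41 in FL and from 1.51 to 2.06 in KO. Across all tested genes, 9.05% were called higher and 16.5% lower in KO at an adjusted p of at most 0.05, and the median log2 difference was -0.06. Of these calls 35.5% were higher, and 47.9%, 48.9% and 46.7% were after rescaling by median ratio, to a common sum as TPM or by quantiles. In bulk islets, fewer cells of a type and less RNA per cell cannot be told apart.

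The 10 genes belong to no single pathway. Sftpd, Matn2 and Tnfrsf11b encode secreted proteins, Cldn8, Gfra3, Lrrc55 and Tmem47 proteins of the cell surface or membrane, Fmo1 and Bcat1 enzymes, and Rerg a small GTPase. In islets, a further known programme is the response to lactogenic hormones in pregnancy, in which the prolactin receptor signals through JAK2 and STAT5, induces feedback inhibitors such as Cish and Socs2, and raises Tph1, which makes serotonin.

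On the GRCm38 build with GENCODE M21 gene models, the 10 genes lay on 8 chromosomes, and all were protein coding. Sftpd spanned chr14:41172214-41185149, Cldn8 chr16:88560828-88563183, Tnfrsf11b chr15:54250619-54278484, Lrrc55 chr2:85162334-85197197 and Gfra3 chr18:34689898-34720387. Matn2 lay at chr15:34306677-34436273, Fmo1 at chr1:162829561-162866610, Bcat1 at chr6:144993835-145076184, Rerg at chr6:137054825-137170497 and Tmem47 at chrX:81070698-81097872. Matn2 and Tmem47 were on the plus strand and the other 8 on the minus strand. Cldn8, Tnfrsf11b and Gfra3 had 1 annotated transcript each, and the others had 2 to 10.

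Promoter windows from RefSeq (GRCm38.p6, 250 bases before to 50 after a start) were matched by symbol for Lrrc55, Bcat1 and Tmem47, giving 4 windows of 300 bases. They are shown as the sequence around the starts of the 3 members that the table holds. Searched on both strands were TTCNNNGAA, the STAT palindrome, AGGTCA, an element of nuclear receptors, CACGTG, an E-box, TGACGTCA, the cAMP response element, and TATAAA, and matched letters stand in capitals. The Lrrc55 window is chr2:85198701-85199000 (minus strand), with a start 1.55 kb upstream of the outermost GENCODE start. The outer Bcat1 window is chr6:145076108-145076407 and the inner one chr6:145048763-145049062, both on the minus strand, and the inner start lies 27.4 kb inside the gene. The Tmem47 window is chrX:81070394-81070693 (plus strand).

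Lrrc55: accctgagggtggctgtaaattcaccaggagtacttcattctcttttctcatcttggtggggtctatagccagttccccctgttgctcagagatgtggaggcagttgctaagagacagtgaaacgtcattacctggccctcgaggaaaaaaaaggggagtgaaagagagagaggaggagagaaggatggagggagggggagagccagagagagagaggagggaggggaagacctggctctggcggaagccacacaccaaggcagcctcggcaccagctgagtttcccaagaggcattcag
Bcat1, outer start: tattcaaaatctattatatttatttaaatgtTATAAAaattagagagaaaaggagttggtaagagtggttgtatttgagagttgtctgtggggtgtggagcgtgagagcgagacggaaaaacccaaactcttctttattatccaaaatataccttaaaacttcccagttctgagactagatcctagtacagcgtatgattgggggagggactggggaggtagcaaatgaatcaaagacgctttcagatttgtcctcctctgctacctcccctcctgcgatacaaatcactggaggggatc
Bcat1, inner start: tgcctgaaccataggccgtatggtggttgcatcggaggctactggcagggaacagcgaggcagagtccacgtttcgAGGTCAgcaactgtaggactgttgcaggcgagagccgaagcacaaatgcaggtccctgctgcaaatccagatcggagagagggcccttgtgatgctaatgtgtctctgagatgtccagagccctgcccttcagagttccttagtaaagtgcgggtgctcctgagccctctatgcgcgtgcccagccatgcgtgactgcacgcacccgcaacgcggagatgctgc
Tmem47: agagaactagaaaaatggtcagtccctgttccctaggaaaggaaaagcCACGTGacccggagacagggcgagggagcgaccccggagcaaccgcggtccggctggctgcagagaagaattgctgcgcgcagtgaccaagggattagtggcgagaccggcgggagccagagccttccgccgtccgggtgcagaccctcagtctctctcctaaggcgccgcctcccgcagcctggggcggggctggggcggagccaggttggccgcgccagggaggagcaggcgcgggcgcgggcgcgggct

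None of the 4 windows held TTCNNNGAA or TGACGTCA, which 8.29% and 1.79% of all 32817 windows held. The inner Bcat1 window had AGGTCA 174 bases before its start (16.3% of all windows hold it), the outer one TATAAA 219 bases before its start (13.6%), and the Tmem47 window CACGTG 202 bases before its start (7.15%). The Lrrc55 window held no match. GC content was 41.0% in the outer Bcat1 window, 54.7% in Lrrc55, 58.7% in the inner Bcat1 window and 68.7% in Tmem47, beside a median of 52.7% over all windows. These are matches of letters only.

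Among the secreted proteins, Sftpd rose most. It encodes surfactant protein D, a collectin that binds sugars on microbes and is best known from lung fluid. Its level was 0.643, 1.25, 1.14, 0.698 and 1.08 FPKM in FL and 169, 173, 126, 124 and 124 FPKM in KO. The lowest KO library was 99.5 times the highest FL library. The means were 0.962 ± 0.273 FPKM and 143 ± 25.1 FPKM (SD, n = 5 each), a ratio of 149, and Sftpd went from rank 12714 in FL to rank 691 in KO among genes ordered by mean level.

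Tnfrsf11b encodes osteoprotegerin, a secreted decoy receptor for RANKL and TRAIL. It was measured at 1.8, 1.76, 1.49, 1.53 and 1.59 FPKM in FL and 59.9, 47.8, 36.5, 51.5 and 40.5 FPKM in KO. The FL libraries were close together, with a coefficient of variation of 8.41%, and the KO libraries varied by 19.5%. The ratio of means was 28.9, and the estimated reads behind the values were 111 to 236 per FL library and 3411 to 6004 per KO library.

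Matn2 encodes matrilin-2, an adaptor protein of the extracellular matrix. The FL libraries had 3.84, 4.70, 4.25, 4.27 and 3.38 FPKM and the KO libraries 61.5, 68.3, 69.6, 57.3 and 54.5 FPKM. Both groups were tight, with coefficients of variation of 12.2% and 10.6%, and the ratio of means was 15.2.

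At the cell surface, Cldn8 and Lrrc55 had the largest ratios because their FL levels were close to 0. Cldn8 encodes claudin-8, a tight junction protein of distal kidney tubules and other epithelia that limits the passage of cations. Its FL values of 0.138, 0.0508, 0.0711, 0.0140 and 0.0327 FPKM correspond to 7, 4, 6, 1 and 4 reads, and its KO values were 47.0, 38.8, 54.5, 36.1 and 33.3 FPKM. The ratio of 684 thus rests on 22 estimated reads in all 5 FL libraries together, against 3025 to 4194 in each KO library.

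Lrrc55 encodes a leucine-rich repeat protein that acts as an auxiliary gamma subunit of the BK potassium channel. Its level in FL was 0.0211, 0.0913, 0.00945, 0.0112 and 0.111 FPKM, and in KO it was 13.1, 18.9, 23.0, 12.4 and 12.5 FPKM. With a coefficient of variation of 99.4% in FL and 29.6% in KO, it was the most variable of the 10 in both groups. On its longest transcript the FL values stood for 1.4 to 23.1 estimated reads per library, so the ratio of 328 is loosely determined.

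Gfra3 encodes the receptor for artemin, a GDNF family ligand, and is known from sensory and sympathetic neurons. FL libraries held 0.853, 0.337, 0.470, 0.320 and 0.305 FPKM and KO libraries 17.7, 23.9, 15.6, 22.3 and 23.7 FPKM. The first FL library was the highest of its group, and the ratio of means was 45.1.

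Tmem47 encodes a small membrane protein related to the claudin and PMP22 families that is found at cell junctions. It measured 0.447, 1.10, 0.995, 0.565 and 0.844 FPKM in FL and 8.24, 13.5, 10.5, 8.24 and 7.12 FPKM in KO. It had the smallest log2 difference and the lowest KO mean of the 10, 9.52 ± 2.54 FPKM.

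Of the 10 genes, the enzyme Fmo1 had the highest level in FL. It encodes a flavin-containing monooxygenase of the endoplasmic reticulum that oxidizes nitrogen and sulfur compounds. Its level was 10.3, 10.6, 8.04, 11.4 and 7.92 FPKM in FL and 121, 130, 146, 111 and 113 FPKM in KO. The ratio of means was 12.9, and in KO it was the second most abundant of the 10 after Sftpd.

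Bcat1 encodes the cytosolic branched-chain aminotransferase, which starts the breakdown of leucine, isoleucine and valine. FL libraries had 0.587, 0.194, 0.445, 0.464 and 0.965 FPKM and KO libraries 16.9, 20.8, 15.6, 14.7 and 14.3 FPKM. The groups were separated by a factor of 14.8 between the lowest KO and the highest FL library.

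Rerg encodes a Ras-related GTPase first described as induced by estrogen in breast cancer cells. Its values were 1.11, 1.11, 0.858, 1.46 and 1.62 FPKM in FL and 14.6, 13.7, 13.7, 11.9 and 11.7 FPKM in KO. Its coefficient of variation in KO, 9.53%, was the lowest of the 10, and its ratio of means, 10.7, was the smallest.

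**Figure D1:**
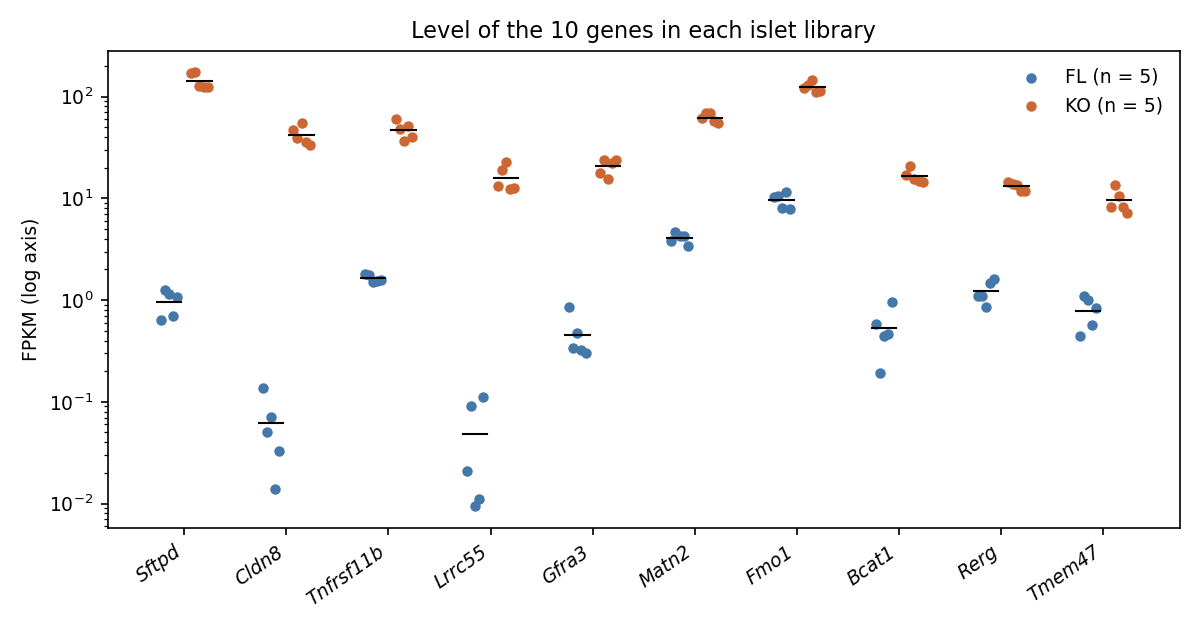
FPKM on a log axis for the 10 genes in each library, FL in blue and KO in orange (5 libraries each), with a line at each group mean. In all 10 genes every KO library sits above every FL library, and the FL spread is widest for Cldn8 and Lrrc55.

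The log2 differences of the 10 genes ran from 2.54 (Tmem47) to 6.19 (Sftpd) on the log2(FPKM + 1) scale, with a median of 3.76. This scale understates the change of genes near 0, so that Cldn8, with the largest ratio, came second at 5.32. Separation of the groups with KO higher was the rule that chose the 10, and 6.67% of all tested genes showed it. Nothing is read from that share here.

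The 10 were not the 10 largest rises. A further 9 genes with no overlap, and without a group listed wholly at 0, rose by at least as much as Tmem47. The 5 largest were Gm27168 (2.34 to 49.0 FPKM, log2 difference 3.87), Tph1 (0.0487 to 11.8 FPKM, 3.59), Dnah8 (0.0369 to 8.99 FPKM, 3.26), B3galt1 (0.629 to 13.1 FPKM, 3.12) and Fbxw24 (0.226 to 9.23 FPKM, 3.06). Just outside the smallest member were Penk, encoding an opioid peptide precursor (log2 difference 2.36), and Rph3a, encoding a protein of vesicle exocytosis (2.34), beside Rerg (2.67) and Tmem47 (2.54) just inside.

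**Figure D2:**
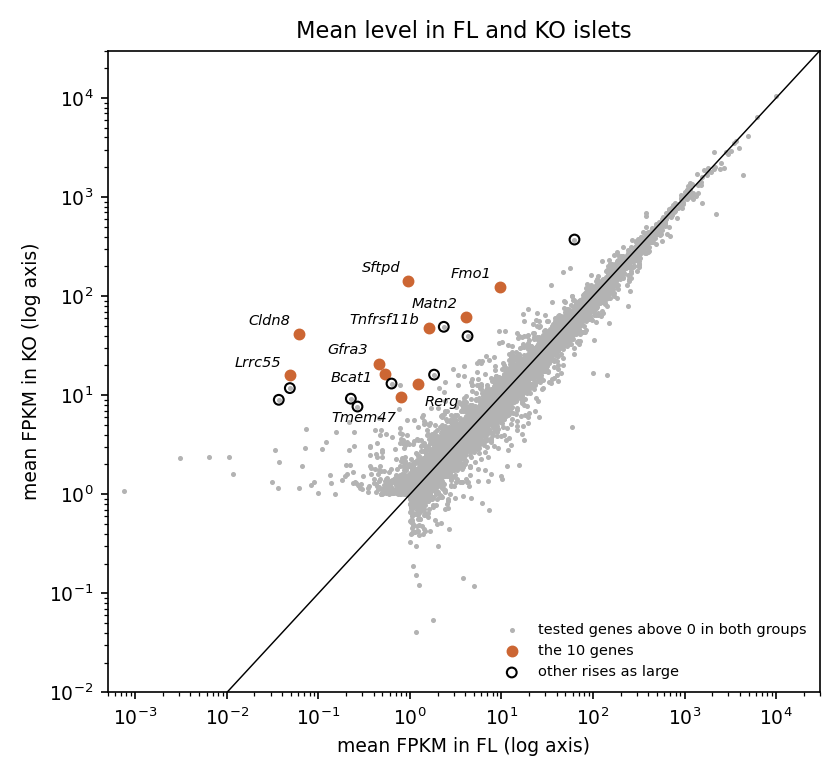
Mean FPKM in FL against mean FPKM in KO, both on log axes, for the tested genes above 0 in both groups (grey), the 10 genes (orange) and the 9 other genes with rises at least as large (open circles), with the line of equal level. Members with FL means from 0.0488 (Lrrc55) to 9.66 FPKM (Fmo1) stand above the cloud, and open circles lie among them.

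By the Pearson correlation of log2(FPKM + 1) with the mean standardized profile of the 10 genes over the 10 libraries, the genes most like them were Dnah8 (r = 0.9999), Gpr26 (0.9988), Pde7b (0.998), Tph1 (0.9977) and Fbxw24 (0.9977). The libraries form 2 groups and these values mostly describe that separation. Within the groups the 10 genes did not move as 1 block. With the group means removed, the 45 pairs of members had a median r of 0.15 over the 10 libraries, from -0.59 (Cldn8 and Gfra3) to 0.70 (Matn2 and Fmo1), and 29 of 45 were above 0. The points share their libraries, depth and cell composition.

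Across the 5 KO libraries, library 2 was above the KO mean of log2 level in 9 of the 10 genes, library 3 in 6, library 1 in 5, library 4 in 2 and library 5 in 1. Library 5 was the lowest KO library for 6 of the 10. The median deviation of the 10 genes was 0.18 in library 2 and -0.19 in library 5, beside 0.05 and -0.06 over all tested genes in the same libraries. Residual Fitm2 and acinar RNA were both highest in libraries 4 and 5. Fitm2 was 4.56, 4.30, 7.75, 9.13 and 9.0 FPKM in libraries 1 to 5, while the summed level of 11 acinar markers was 5120, 2830, 3020, 8570 and 21100 FPKM in the same order. Sftpd was 169 and 173 FPKM in libraries 1 and 2 and 126, 124 and 124 FPKM in libraries 3, 4 and 5. Library 3 was the highest KO library for 4 of the 10 genes and the lowest for 2. Gfra3 was 22.3 and 23.7 FPKM in libraries 4 and 5, above libraries 1 and 3. The part of either in the spread was not tested.

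**Figure D3:**
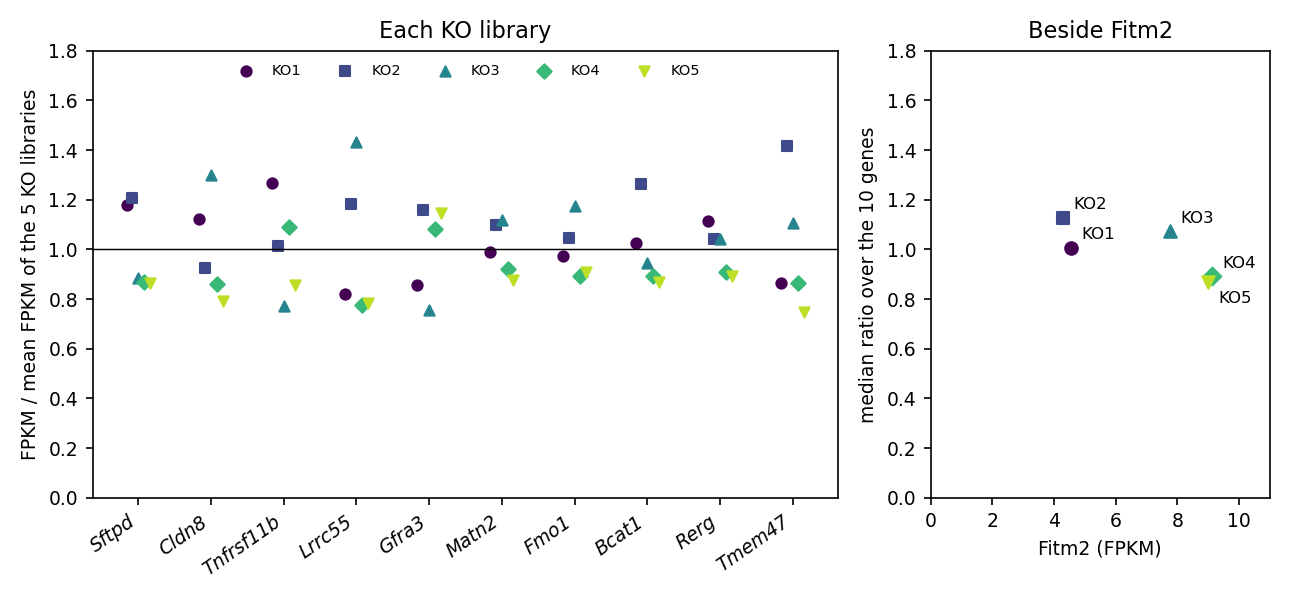
Left, the FPKM of each of the 10 genes in each KO library divided by the mean of the 5 KO libraries, and right, the median of these ratios against Fitm2 FPKM in the same library. Libraries 4 and 5, with 9.13 and 9.0 FPKM of Fitm2, sit mostly under 1 and library 2 mostly above, with Gfra3 in libraries 4 and 5, Tnfrsf11b in library 4 and Cldn8 in library 2 as exceptions.

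Genes related to the 10 by family, receptor, ligand, complex or pathway were tested one by one, since the choice of members did not use them. They formed 11 lists of 146 genes, of which 92 were tested. In KO, 26 (28.3%) were called higher and 17 (18.5%) lower, beside 9.05% and 16.5% of all tested genes, and the median log2 difference was 0.02 beside -0.06. The same shares of all tested genes are the ones to read beside each list and marker count below. Of the 26, 7 had an FL mean under 1 FPKM and so were tested only because KO was higher. They were Cldn1, Cldn2, Cldn5, Fn1, Fmo4, Tph1 and Tph2. Of the 17, 1, Gfra4, had a KO mean under 1 FPKM and was tested only because FL was higher. The filter had a part in these calls and in the shares of their lists. The lists were picked knowing earlier results of these data, and the lactogen list in particular holds genes that had been seen to rise.

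No other surfactant protein or collectin gene reached the level tested, 10 of 10. Sftpb, needed to spread surfactant, was listed at 0 in every library, Sftpc averaged 0.00589 FPKM in FL and 0.00874 in KO, and Sftpa1, a neighbour of Sftpd, averaged 0.0514 and 0.109 FPKM. Of 6 markers of lung alveolar type II cells, only Abca3, a lipid transporter, was tested, at 44.4 and 45.4 FPKM (limma adjusted p = 0.904). Napsa averaged 0.132 FPKM in FL and 0.232 in KO, and Lamp3 0.00636 and 0.00332. The summed markers, nearly all of them Abca3, were 39.9 to 49.5 FPKM in FL and 38.0 to 58.3 in KO.

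Of 19 tested tight junction genes, 7 were higher (36.8%) and 4 lower (21.1%) in KO. Cldn1, Cldn2 and Cldn5, among the higher ones, averaged under 1 FPKM in FL and were tested only because KO was higher. The filter thus had a part in their calls and in the 36.8%. Cldn2, a cation pore, rose from 0.800 ± 0.550 to 3.61 ± 0.601 FPKM (adjusted p = 0.000315), Cldn23 from 3.47 ± 0.559 to 8.36 ± 1.13 (adjusted p = 3.74e-05), Cldn1, a barrier claudin, from 0.280 ± 0.0329 to 1.21 ± 0.316 (adjusted p = 0.000947) and occludin, Ocln, from 12.3 ± 2.61 to 19.0 ± 3.56 (adjusted p = 0.0172; limma, SD, n = 5 each). Cldn5, the endothelial claudin, rose from 0.608 to 1.25 FPKM, and 4 of 8 endothelial markers rose as well, with summed levels of 166 to 193 FPKM in FL and 186 to 253 in KO, whose part was not tested. Cldn4, which is known to pair with claudin-8 in the kidney, averaged 187 ± 18.4 FPKM in FL and 130 ± 38.6 in KO (adjusted p = 0.0347), but 12 of 20 alternative settings lost the call, with adjusted p-values of up to 0.0756, also reached without FL library 2. Leaving out FL libraries 1, 3, 4 or 5 or KO libraries 1 or 2 lost it too (adjusted p from 0.0515 to 0.0705). The scaffolds fell by less, Tjp1 from 62.5 to 49.0 FPKM and Tjp3 from 8.83 to 6.80. Cldn7, the other abundant claudin, was 172 FPKM in FL and 211 in KO (adjusted p = 0.0136). Cldn3 was 38.8 and 51.4 FPKM, not called (adjusted p = 0.143) unless KO library 3 was left out (adjusted p = 0.00859). In KO, Cldn8 thus stood at 41.9 ± 8.71 FPKM beside 51.4 ± 13.2 for Cldn3, per length, and the 2 genes overlapped in their KO libraries.

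For Tmem47, 3 of 6 tested genes of the PMP22, EMP and claudin-type family were higher and none lower. These were Perp, a desmosomal protein induced by p53 (12.7 to 18.9 FPKM, adjusted p = 0.00166), Emp3 (3.08 to 4.88 FPKM, adjusted p = 0.0157) and Emp1 (6.45 to 9.03 FPKM, adjusted p = 0.0159). Pmp22 (3.91 and 3.94 FPKM) and Emp2 (3.36 and 3.54 FPKM) were not called.

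Around Tnfrsf11b, the ligand RANKL (Tnfsf11) was listed at 0 in all 10 libraries, and its signalling receptor RANK (Tnfrsf11a) was at 3.56 ± 0.158 FPKM in FL and 3.80 ± 0.299 in KO (adjusted p = 0.413). TRAIL, Tnfsf10, the other ligand of osteoprotegerin, rose from 3.47 ± 0.271 to 4.86 ± 0.434 FPKM (adjusted p = 0.00235), and its death receptor Tnfrsf10b from 1.49 ± 0.164 to 2.11 ± 0.0990 (adjusted p = 0.00865). The 2 of 7 tested genes that rose (28.6%, beside 9.05% of all tested genes) were a ligand that osteoprotegerin binds and that ligand's receptor. In KO the decoy receptor stood at 47.2 FPKM, above TRAIL and RANK.

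Of the BK channel subunits, the pore-forming Kcnma1 fell from 18.4 ± 0.572 to 14.3 ± 1.67 FPKM (adjusted p = 0.00527). Kcnmb2, the abundant beta subunit, was 131 and 121 FPKM (adjusted p = 0.281). The other gamma subunits were under the level tested. Lrrc38 averaged 0.201 FPKM in FL and 0.642 in KO, Lrrc26 0.0739 and 0.0357, and Lrrc52 was listed at 0. Lrrc55 in KO (16 FPKM) was thus at about the level of the pore subunit, per length, and the 2 genes went in opposite directions.

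Of the tested partners of Gfra3, most that were called fell. Ret, the kinase that GDNF family receptors share, fell from 57.2 ± 1.44 to 32.8 ± 1.94 FPKM (log2 difference -0.79, adjusted p = 1.11e-06). Nrtn, encoding the ligand neurturin, fell from 11.7 to 6.38 FPKM (adjusted p = 0.00894), and Gfra4 from 1.02 to 0.545 FPKM (adjusted p = 0.0281), a call lost without KO library 1 (adjusted p = 0.0506) or KO library 2 (adjusted p = 0.0521). Gfra4 was tested only because its FL level passed the filter, so the filter had a part in this call. Gfra1 was 4.32 and 3.84 FPKM (adjusted p = 0.604), and artemin, the ligand of GFRA3, was under the level tested at 0.854 and 0.456 FPKM. Gdf15, a stress-induced cytokine whose receptor GFRAL was listed at 0, rose from 19.5 to 33.8 FPKM (adjusted p = 0.00383). In all, 1 of 5 tested genes was higher and 3 lower, Gfra4 among the latter. Since Gfra3 is known from nerves, glial markers are given beside it. Of 8 Schwann cell markers, 6 were under the level tested and 1 of the other 2 was called, Ngfr, which neurons and stellate cells also express and which rose from 1.36 to 6.09 FPKM (adjusted p = 0.000414). The summed markers were 5.73 to 10.5 FPKM in FL and 10.3 to 13.0 in KO, and their part in the rise of Gfra3 was not tested.

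For Matn2, no other matrilin averaged more than 0.176 FPKM in either group, Matn1 being listed at 0 in every library. Fibronectin, Fn1, averaged 0.830 FPKM in FL and 1.40 in KO (adjusted p = 0.0463), a call that 11 of 19 alternatives lost, with adjusted p-values of up to 0.108, the latter without KO library 1. It was also lost without FL libraries 3, 4 or 5 or KO libraries 2, 4 or 5 (adjusted p from 0.0513 to 0.0944). Fbn1, Nid1 and Nid2, matrix proteins that matrilin-2 can bind, were not called, though Fbn1 (0.952 and 1.52 FPKM, adjusted p = 0.0515) was under 7 of 19 alternatives, among them without KO library 3 (adjusted p = 0.0148). Nid1 was called higher under 1 of 20 alternatives, quantile normalization (adjusted p = 0.047). The fibroblast and stellate cell markers rose in 6 of 6 tested, beside 9.05% of all tested genes called higher. Among them were Col3a1, from 6.02 to 11.5 FPKM, and Pdgfrb, from 4.39 to 6.54 FPKM. The summed levels were 18.4 to 27.2 FPKM in FL and 35 to 44.3 in KO. Macrophage and leukocyte markers rose in 3 of 6 tested, with sums of 131 to 156 and 185 to 224 FPKM. The part of either in the rise of Matn2 was not tested.

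Of the flavin monooxygenases, Fmo4, which lies beside Fmo1, rose from 0.621 ± 0.274 to 1.8 ± 0.475 FPKM (adjusted p = 0.00362). Fmo2, also beside it, was 2.79 ± 2.46 and 3.19 ± 0.940 FPKM (adjusted p = 0.522), with a high first FL library, and without that library it was called higher (log2 difference 0.63, adjusted p = 0.0347). Fmo5 did not pass (3.17 and 2.91 FPKM, adjusted p = 0.468). Among microsomal partners, Cyb5a (130 and 147 FPKM, adjusted p = 0.0426) and Ephx1 (37.9 and 44.7 FPKM, adjusted p = 0.0300) were called higher, and the calls were lost under 10 and 7 of 20 alternatives, with adjusted p-values of up to 0.0964 and 0.0880. Cyb5a lost the call without FL libraries 1, 3, 4 or 5 or KO libraries 1, 2 or 4 (adjusted p from 0.0660 to 0.0964), and Ephx1 without FL libraries 1, 2 or 5 or KO libraries 1, 2 or 3 (0.0523 to 0.0717). In all, 3 of 7 tested genes (42.9%) were higher and none lower, beside 9.05% and 16.5% of all tested genes.

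In the branched-chain amino acid list of Bcat1, 3 of 20 tested genes were higher and 3 lower (15.0% each). Over all tested genes the shares were 9.05% and 16.5%. Bcat2, the mitochondrial aminotransferase, was 8.73 ± 0.442 and 9.31 ± 1.10 FPKM (adjusted p = 0.478), so that Bcat1 went from far under Bcat2 to above it, per length. Ivd, which oxidizes the leucine product isovaleryl-CoA, rose from 47.8 ± 7.68 to 88.3 ± 15.5 FPKM (adjusted p = 0.000801), and Acad8, its counterpart for valine, from 13.1 to 17.2 FPKM (adjusted p = 0.0125). Slc25a44, the mitochondrial carrier of branched-chain amino acids, fell from 42.6 to 35.6 FPKM (adjusted p = 0.00825) and Slc7a5, the plasma membrane transporter LAT1, from 179 to 150.5 FPKM (adjusted p = 0.0129). Mccc1 was lower, 20.3 and 16.5 FPKM (adjusted p = 0.0204, and 0.0507 without KO library 4), and Bckdk higher, 92.9 and 106 FPKM (adjusted p = 0.0354). Without FL libraries 1, 4 or 5 or KO libraries 1, 2 or 4 the Bckdk call was lost (adjusted p from 0.0508 to 0.0861).

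Near Rerg in sequence, Rasd2, a striatal Ras-like GTPase, fell from 24.8 ± 1.53 to 8.70 ± 1.33 FPKM (log2 difference -1.42, adjusted p = 1.38e-06) and Rit2 from 9.01 ± 2.37 to 3.84 ± 0.893 FPKM (adjusted p = 0.00122). Rit1 rose from 41.9 to 52.9 FPKM (adjusted p = 0.00598). The closest relative, Rergl, was listed at 0, and the estrogen receptors were under the level tested, Esr1 at 0.0208 and 0.172 FPKM and Esr2 at 0.00391 and 0.0325. Of 11 tested genes, 1 was higher (9.09%) and 2 lower (18.2%), beside 9.05% and 16.5% of all tested genes.

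The lactogen list had 5 of 11 tested genes higher and 4 lower. Tph1, tryptophan hydroxylase, was among the rises as large as those of the members. Tph2 rose from 0.441 ± 0.370 to 3.29 ± 0.685 FPKM (adjusted p = 6.41e-05), Cish from 17.2 ± 2.87 to 66.3 ± 9.86 (log2 difference 1.89, adjusted p = 2.34e-06) and Socs2 from 16.6 ± 0.773 to 38.8 ± 2.62 (log2 difference 1.18, adjusted p = 1.30e-07). The prolactin receptor Prlr was 41.1 and 52.4 FPKM (adjusted p = 0.0196). The growth hormone receptor Ghr fell from 136 to 103.5 FPKM (adjusted p = 0.00231), Stat5a from 6.67 to 5.22 (adjusted p = 0.00861), Stat5b from 27.2 to 23.0 (adjusted p = 0.0217, but 0.0543, 0.0540 and 0.0557 without FL library 3, FL library 5 or KO library 4) and Bcl6, a repressor that STAT5 lowers, from 3.26 to 2.28 (adjusted p = 0.00333). Rescaling to the same sum as TPM also lost the Stat5b call (adjusted p = 0.0564). The feedback inhibitor Socs3 was not called (15.7 and 14.6 FPKM, adjusted p = 0.952), and Socs1 was under the level tested, at 0.852 and 0.778 FPKM.

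**Figure D4:**
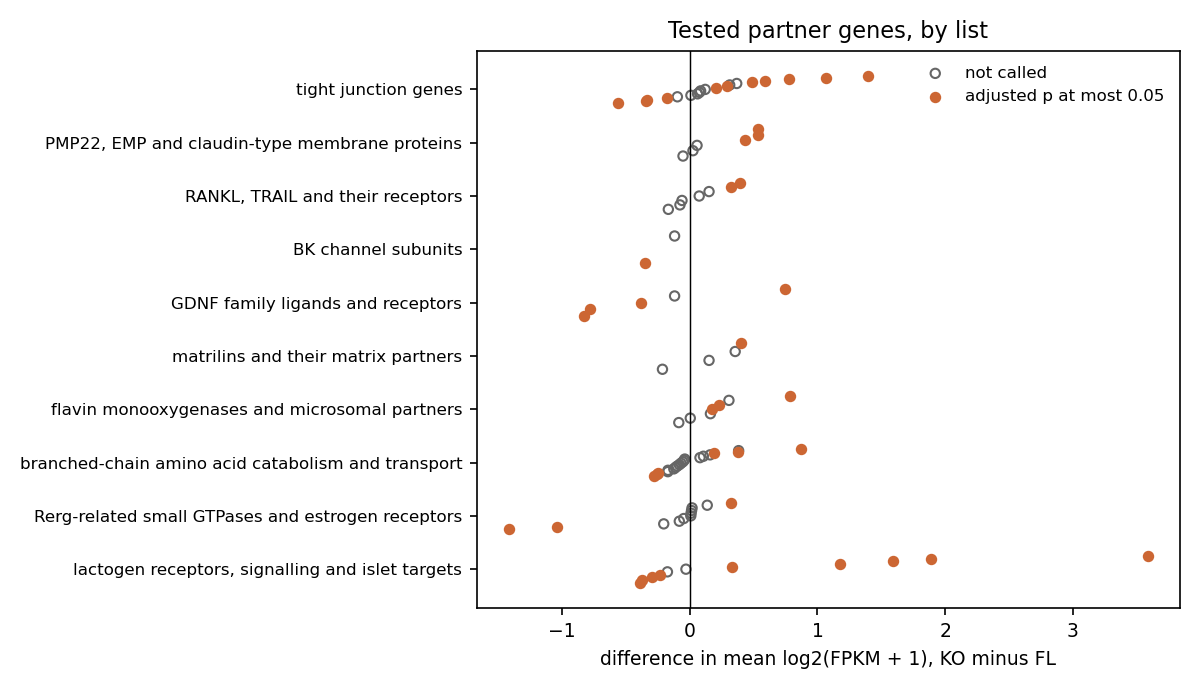
Difference in mean log2(FPKM + 1), KO minus FL, of each tested partner gene by list, filled where the adjusted p was at most 0.05. Values spread to both sides of 0 in most lists, with Tph1 (3.59) farthest to the right and Rasd2 (-1.42) farthest to the left.

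To see whether whole regions rose, the 2 nearest annotated genes on each side of each member were looked up, 40 in all. Most were at or near 0, with 16 at 0 in every library and 31 under the level tested. Of the 9 tested, 3 (33.3%) were called, all higher, beside 25.5% of all tested genes called in either direction. They were Fmo4, given above, Gm13715, a lincRNA 36.5 kb upstream of Lrrc55 (listed at 0 in all FL libraries, 2.2 ± 0.673 FPKM in KO, adjusted p = 1.27e-05), and 9430069I07Rik, which overlaps Matn2 on the other strand (0.221 ± 0.142 and 1.99 ± 0.509 FPKM, adjusted p = 8.73e-05). The libraries were made with a stranded kit, but whether strand was used in quantification is not given in the sources used here, so reads of Matn2 and 9430069I07Rik may not be separated. All 3 reached the tested level only in KO, so that a rise is what let them into the test. The abundant neighbours Rpl30 beside Matn2 (525 FPKM in FL, ratio 1.01), Cdc23 beside Gfra3 (40.5 FPKM, 0.948) and Prrc2c beside Fmo1 (22.9 FPKM, 1.09) were not called, and the median log2 difference of the 9 was 0.13.

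**Figure D5:**
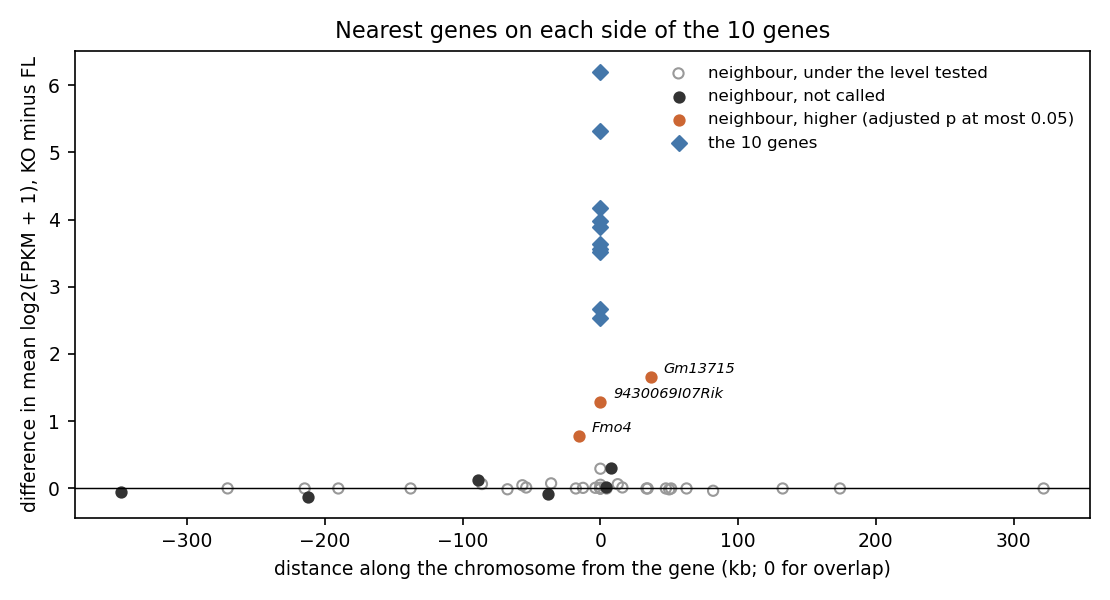
Distance in kb from each of the 10 genes to its neighbours against the difference in mean log2(FPKM + 1), KO minus FL, with the 10 genes at distance 0. The 3 neighbours called higher lie between 0.78 (Fmo4) and 1.65 (Gm13715), and most others sit at 0. The 10 genes, chosen for large rises, start at 2.54.

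Markers of other pancreatic cells were compared with the members as well. Cftr, the chloride channel of duct cells, rose from 0.0372 to 2.13 FPKM (adjusted p = 1.13e-06), a gene tested only because its KO level passed the filter, while Krt7 fell from 451 to 356 FPKM (adjusted p = 0.00459) and the summed 7 duct markers were 615 to 677 FPKM in FL and 527 to 665 in KO. Krt19 was not called (adjusted p = 0.785). None of 10 tested acinar markers was called, with limma adjusted p-values from 0.497 to 0.865, and none had an unadjusted p under 0.05. Alpha-cell markers were lower in 2 of 5 tested, and delta and PP cell markers in 1 of 5. The part of any cell type in the rises of the 10 genes was not tested.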

How the data were processed

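Poly(A) RNA of 5 FL and 5 KO islet libraries was sequenced with a stranded kit. Per the submitters' processing notes, the authors used STAR 2.5.2a and Cuffnorm 2.2.1 with mm10/GRCm38, and deposited normalized FPKM for 47340 genes, of which 22548 are at 0 in every library. FPKM sums were 627084 to 675470 per library, and total read counts are not given. From low genes with 1 transcript over 600 nt, whose FPKM fall on whole multiples of 1 read (94.2% to 95.7% within 0.05 of a whole number, under 10 reads), relative depth and reads behind member values were estimated. Such reads cover counting error only, and for genes with several transcripts depend on the transcript taken.

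Testing took in genes whose FL or KO mean reached 1 FPKM, and ran on log2(FPKM + 1) with limma 3.58.1 (R 4.3.3, eBayes with a trend, 2-sided, Benjamini-Hochberg), with calls at adjusted p-values up to 0.05. Tested on simulated data of 13065 genes, the fit called 182 of 200 genes changed by 1 on the log2 scale and 12 unchanged genes. The 10 genes and the lists were chosen with earlier results of these data known. Named were every member, up to 6 called genes per list with the nearest paralogs, receptors or ligands, called neighbours, the 5 largest other rises and 3 just under the smallest member, the 5 most alike genes, Fitm2 and the cell markers. Alternatives were 2 smaller pseudocounts, no or a stricter filter, 3 rescalings, no trend, sample weights, a replicate block, an added 1.5-fold limit and each library left out. Positions are GENCODE M21, and promoters are RefSeq. A few genes that the naming rule or the lists hold are not reported here.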

Additional observations from a re-analysis of the deposited data

Results flagged for a closer look

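In 172 groups of 5 libraries (the 10 genes and the other named genes, FL and KO), 9 had 1 library far from the rest by Dixon's test, and chance gives about 1 in 20 groups. None of the 9 was a group of the 10 genes. In FL, library 1 stood apart for Tph2 (1.10 FPKM, next 0.327), Fmo2 (7.09 FPKM, next 2.54), Cldn1 (low at 0.223 FPKM, next 0.285) and Gpr26 (0.00373 FPKM, the others listed at 0), and library 2 for Cldn4 (219 FPKM, next 185). Among the KO libraries, library 2 stood apart for Gfra4 (low at 0.331 FPKM, next 0.571), Slc7a5 (168 FPKM, next 150) and Tph1 (16.4 FPKM, next 11.5), and library 5 for the duct marker Krt19 (66.6 FPKM, next 27.0).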

How the results depend on the processing

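The choice of the 10 genes fixes the sign of their difference, so only its size is given here. Its median was 3.76 and became 4.79 and 4.96 with pseudocounts of 0.1 and 0.01 FPKM and 4.1 when rescaled to the same sum as TPM, in each of which the pseudocount is smaller relative to the level. With a change of at least 1.5-fold also required, 349 genes were called higher and 290 lower, with 11 partner genes higher and 4 lower. With a mean of at least 5 FPKM, 17 partner genes were higher and no neighbour was called, since the 3 called ones lie under 5 FPKM. Beside the 10 genes, 58 called partner, neighbour, marker and other genes were followed, of which, with the 1.5-fold limit left aside, 49 kept the call under each of the 20 other alternatives they could be fitted in and 9 lost it under at least 1. Some genes that were not called changed sign. Pmp22 was -0.017 with sample weights and from -0.123 to 0.125 when 1 library was left out, negative without FL library 4 or KO library 1, 4 or 5, and Gfra1 was from -0.206 to 0.004, positive without FL library 1. Socs3 was 0.014, 0.011 and 0.02 after rescaling by median ratio, as TPM or by quantiles, 0.111 with sample weights and from -0.208 to 0.156 without 1 library. Rpl30 was from -0.034 to 0.109 without 1 library, and Abca3 from -0.069 to 0.083 and -0.095 with sample weights.

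The replicate numbers are shared by FL and KO, but same-numbered libraries did not deviate together (correlations of -0.10 to 0.003), so they do not pair the samples. With the replicate block, 874 genes were called higher and 1494 lower, 20 partner genes higher and 13 lower, 3 neighbours were called, and the median of the 10 genes was 3.76. The calls of Cldn4, Gfra4, Fn1, Ephx1, Cyb5a, Mccc1, Bckdk, Cldn7 and Stat5b were lost with it (adjusted p from 0.0537 to 0.0912).

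FL levels near 0 limit the ratios of Cldn8 and Lrrc55 most, and no total read counts were available here to set intervals.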
